A study of Homo sapiens with 8 samples.

Results

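The genes HMGCS1, FDFT1, SQLE, SREBF1, SREBF2, SCAP and INSIG1 encode enzymes of cholesterol synthesis and the proteins of the SREBP pathway, which governs that synthesis. These 7 genes were taken by name from 20037 protein-coding genes. All peaks from 10 kb before to 10 kb after each gene, gene body included, were read from 6 lists of Flag ChIP-seq peaks. Every library came from Huh7, a human liver cancer cell line. Its own ARID1A was knocked out, and a lentivirus supplied a stably overexpressed ARID1A with a Flag tag. The tagged protein was the V2084D mutant with knockdown of STUB1 in 2 libraries, the V2084D mutant with no knockdown named in its title in 2 libraries (called V2084D), and the wild-type protein (WT) in 2 libraries. Groups follow the titles. Peak names carry 1 tag in the lists with knockdown and another, shEV, in the V2084D and WT lists, which the labels do not explain, so whether those cells held a control hairpin is not known here. ARID1A is a subunit of BAF, a form of the SWI/SNF chromatin remodelling complex, and STUB1 (also called CHIP) is a ubiquitin ligase that works with chaperones. The comparisons ask where the mutant protein is found relative to WT, and whether knockdown of STUB1 alters this. The labels do not say whether the cells were a pool or 1 clone, nor whether replicates were cultured apart. The p-values thus cover library-to-library spread alone, and that spread may be technical.

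Cholesterol is built from acetyl-CoA. HMGCS1 condenses acetoacetyl-CoA with acetyl-CoA to HMG-CoA, FDFT1 (squalene synthase) joins farnesyl diphosphate units to squalene, and SQLE (squalene epoxidase) oxidises squalene. The transcription factors SREBP-1 and SREBP-2, from SREBF1 and SREBF2, are made as membrane precursors and are carried by the escort protein SCAP. When sterols are high, INSIG1 holds SCAP in the endoplasmic reticulum, and when they are low SCAP takes the precursors to the Golgi, where proteases release the active factors. SREBP-2 acts mainly on genes of cholesterol synthesis and uptake, and SREBP-1 mainly on genes of fatty acid synthesis, both central tasks of the liver. A peak marks DNA at which crosslinked, tagged ARID1A was enriched. It measures neither the RNA of the gene nor the amount of protein.

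The lists held 8904 and 6663 peaks with STUB1 knockdown, 6000 and 12384 in V2084D, and 27587 and 26515 in WT. Read depth is unknown from these files. The authors' fold enrichment of a peak and its rank by −log10 q are used only within a list, equal q values share the best rank, and ranks from lists of different lengths show no change. The strongest peak within 10 kb of ARID1A, the gene that was knocked out and put back, ranked 5 and 5 with STUB1 knockdown, 1 and 1 in V2084D, and 483 and 55 in WT. That of STUB1 ranked 1430 and 4292 with knockdown, 558 and 360 in V2084D, and 5092 and 768 in WT. Peaks do not measure whether STUB1 was depleted, and they cannot check the cell type. Of 5 hepatocyte markers (ALB, AFP, TTR, APOA1 and HNF4A), 0 with knockdown, 1 in V2084D and 1 in WT, APOA1, had a peak in both libraries. The counts for fibroblast markers (COL1A1, COL1A2 and PDGFRB) were 1, 1 and 2 of 3, those for endothelial markers (PECAM1, CDH5 and KDR) 0, 1 and 1 of 3, and those for blood markers (PTPRC, CD68 and CD3E) 1, 1 and 1 of 3, in the same order of groups. Over all protein-coding genes the shares were 25.4%, 24.2% and 66.7%, and such small counts were not tested against them.

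The 250 bases before the annotated start of SREBF2, INSIG1, HMGCS1 and SCAP are shown because mutant peaks at these genes overlapped them. A mutant peak near the start of SREBF1, in replicate 1 with knockdown, did not reach the 250 bases of that gene. The other columns of bases are thus those of the 4 genes alone. The sequences come from RefSeq (GRCh38.p14) and are written 5′ to 3′ on the strand of the gene. Capitals mark matches to 4 motifs searched on both strands, the sterol regulatory element TCACNCCAC, the E-box CACGTG, the NF-Y box CCAAT and the AP-1 site TGANTCA. An NF-Y box on the other strand shows as its reverse complement.
SREBF2, chr22:41832855-41833104, plus strand: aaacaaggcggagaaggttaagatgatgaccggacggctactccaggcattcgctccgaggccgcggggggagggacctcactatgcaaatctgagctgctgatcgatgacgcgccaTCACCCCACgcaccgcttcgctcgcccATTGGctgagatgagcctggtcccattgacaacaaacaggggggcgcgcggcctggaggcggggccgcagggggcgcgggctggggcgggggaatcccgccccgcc
INSIG1, chr7:155297628-155297877, plus strand: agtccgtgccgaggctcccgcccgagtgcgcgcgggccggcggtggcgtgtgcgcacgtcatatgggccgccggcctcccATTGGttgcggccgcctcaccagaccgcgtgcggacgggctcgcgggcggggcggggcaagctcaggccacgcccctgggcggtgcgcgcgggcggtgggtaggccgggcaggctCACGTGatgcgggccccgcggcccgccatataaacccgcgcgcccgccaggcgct
HMGCS1, chr5:43313413-43313662, minus strand: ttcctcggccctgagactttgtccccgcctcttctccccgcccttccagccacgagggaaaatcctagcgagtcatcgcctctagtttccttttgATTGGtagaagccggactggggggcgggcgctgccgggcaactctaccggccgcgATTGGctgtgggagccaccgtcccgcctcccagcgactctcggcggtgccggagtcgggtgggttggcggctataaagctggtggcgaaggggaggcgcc
SCAP, chr3:47475942-47476191, minus strand: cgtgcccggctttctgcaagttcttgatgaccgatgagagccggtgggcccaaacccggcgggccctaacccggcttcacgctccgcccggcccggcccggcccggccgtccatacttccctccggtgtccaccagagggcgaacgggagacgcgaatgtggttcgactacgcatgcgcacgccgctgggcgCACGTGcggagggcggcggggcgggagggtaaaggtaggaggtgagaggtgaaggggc
In the table's windows of 250 bases before to 50 after a start, 1.12% of 34796 distinct promoter sequences held the sterol regulatory element, 7.20% the E-box, 34.6% the NF-Y box and 7.73% the AP-1 site. The window of SREBF2 held a sterol regulatory element that begins 133 bp before the start and an NF-Y box at 106 bp. The window of INSIG1 held an E-box at 55 bp and an NF-Y box at 170 bp, that of HMGCS1 NF-Y boxes at 155 and 100 bp, and that of SCAP an E-box at 58 bp. No match was found in the window of SREBF1 or in that of a second annotated start of HMGCS1, which lies 231 bp inside the gene. The AP-1 letters occurred in none of these 6 windows. A match is a run of letters and not a measured site.

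Around the 7 genes, WT lists held several times as many peaks as either mutant group. The peaks listed with STUB1 knockdown lay mostly at the starts of SREBF2, INSIG1, HMGCS1 and SCAP. Those of V2084D lay both there and elsewhere. These 4 starts are named because mutant peaks overlapped the bases before them, which the mutant peak near the start of SREBF1 did not. The 7 windows together held 5 and 2 peaks in the libraries with STUB1 knockdown, 2 and 8 in V2084D, and 25 and 18 in WT. All WT values lay above all mutant values, whereas the values with knockdown lay within the range of V2084D. The mean was 5.00 ± 4.24 peaks (SD, n = 2) in V2084D against 21.5 ± 4.95 (SD, n = 2) in WT, a ratio of 0.233 and a difference of -16.5 peaks (pairs of libraries from -23 to -10). With knockdown it was 3.50 ± 2.12 (SD, n = 2), a difference of -18.0 to WT (pairs from -23 to -13) and of -1.50 to V2084D (pairs from -6 to 3). In exact permutation tests over libraries (two-sided), p was 0.333 for each mutant group against WT (adjusted p = 0.5 over 3 group pairs) and 1 between the mutant groups. The smallest p that 2 libraries against 2 allow is 0.333, so no comparison could pass 0.05. These gaps moved with list length. With every list cut to its 6000 strongest peaks, the difference to WT shrank to -2.50 peaks in V2084D (exact permutation p = 0.667) and to -4.00 with knockdown (exact permutation p = 0.333). Per 1000 peaks of its own list, a library held 0.562 and 0.300 member peaks with knockdown, 0.333 and 0.646 in V2084D, and 0.906 and 0.679 in WT. Mean peaks per gene window were 0.714 and 0.286 with knockdown, 0.286 and 1.14 in V2084D, and 3.57 and 2.57 in WT. Over all protein-coding genes they were 0.605 and 0.441, 0.393 and 0.785, and 1.71 and 1.65, in the same order. WT lists thus held more peaks than mutant lists at genes in general, and the 7 genes were not tested against that.

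**Figure D1:**
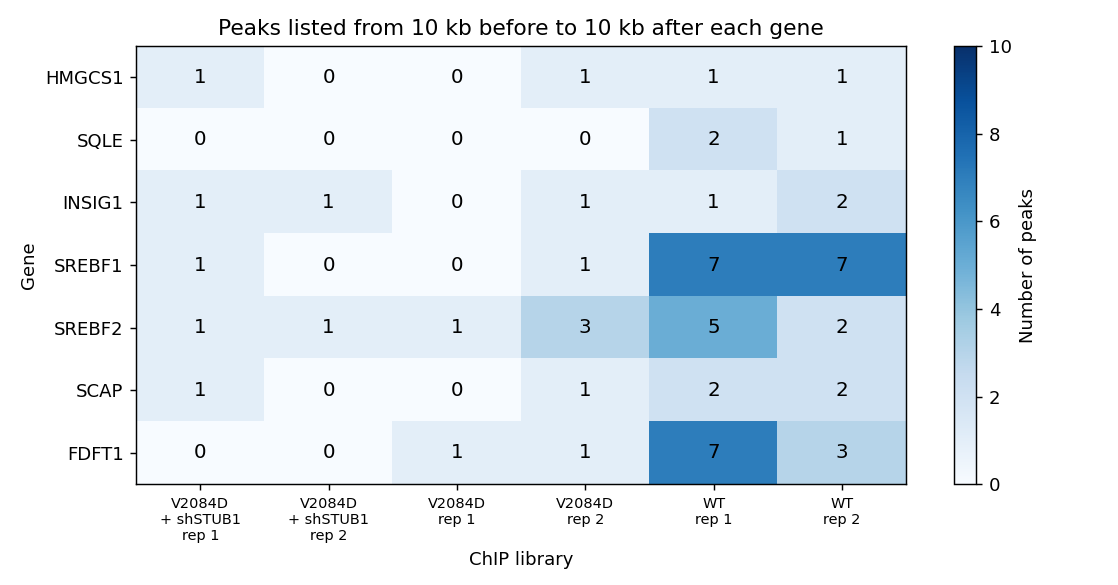
Number of peaks from 10 kb before to 10 kb after each of the 7 genes (rows) in each of the 6 ChIP libraries (columns, with the mutant groups left of WT). SREBF1 had 7 and 7 peaks in WT and at most 1 in a mutant library, SREBF2 had at least 1 peak in every library, and SQLE had none in the 4 mutant libraries.

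The median number of peaks per gene was 1 and 0 with STUB1 knockdown, 0 and 1 in V2084D, and 2 and 2 in WT, against 0 in each mutant library and 1 in each WT library over all protein-coding genes. All 7 genes had a peak in both WT libraries, a pattern found at 66.7% of all protein-coding genes. A peak in both libraries was found at 2 of 7 genes with STUB1 knockdown (INSIG1 and SREBF2), against 25.4% of all genes, and at 2 of 7 in V2084D (FDFT1 and SREBF2), against 24.2%. For the mutant groups these counts are close to the background. Single libraries differed within a group. With knockdown, 5 of 7 genes had a peak in replicate 1 and 2 of 7 in replicate 2, where 40.0% and 31.4% of all genes did. In V2084D, 2 of 7 had one in replicate 1 and 6 of 7 in replicate 2, against 28.8% and 46.0% of all genes. In WT it was 7 of 7 in each replicate, against 71.9% and 71.2%. V2084D replicate 2 was the longer of the V2084D lists, and HMGCS1, INSIG1, SREBF1 and SCAP had their only V2084D peaks there. Of the genes with a peak in both WT libraries, 33.7% had none with knockdown, among them SQLE and FDFT1, and 28.7% had none in V2084D, among them SQLE. SQLE was also the only 1 of the 7 without a peak in any mutant library, as were 19.2% of the genes occupied in WT, and SREBF2 the only 1 with a peak in all 6, as were 16.4% of all genes.

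**Figure D2:**
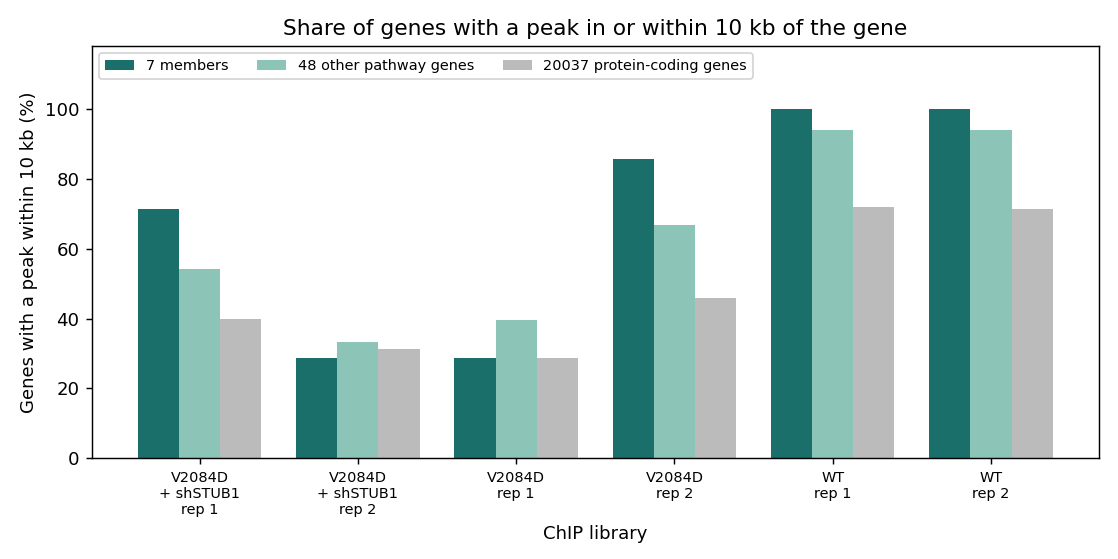
Share of genes (%, from 0) with a peak in or within 10 kb of the gene in each ChIP library, for the 7 genes, 48 other genes of sterol and fatty acid metabolism, and 20037 protein-coding genes. The 7 genes stand at 71.4% and 28.6% with STUB1 knockdown, 28.6% and 85.7% in V2084D and 100% in both WT libraries.

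Overlapping peaks of both WT libraries formed 11 reproducible regions in the 7 windows, 3 at SREBF1, 2 each at SREBF2 and FDFT1, and 1 each at HMGCS1, SQLE, INSIG1 and SCAP. Of the 11 regions, 7 had no peak in either library with STUB1 knockdown, against 50.2% of all 16157 WT regions, and 4 had none in V2084D, against 46.8%. The libraries with knockdown had a peak at 4 and 2 of the 11 (36.4% and 18.2%), against 41.5% and 31.5% of all WT regions. Those of V2084D had one at 2 and 7 (18.2% and 63.6%), against 27.7% and 46.8%. The order of the mutant groups is not stable. With −log10 q of at least 5, 4 of 5 regions lacked a knockdown peak and 5 of 5 a V2084D peak, and with a fold of at least 5 it was 2 and 3 of 4. The shares over all WT regions were not computed at these cuts, so these counts have no background beside them. The start of SREBF2 had a peak in all 4 mutant libraries and the start of INSIG1 in 3. HMGCS1, SCAP and 1 region of FDFT1 had a peak in 2 mutant libraries, 1 region each of SREBF1 and SREBF2 in 1, and the remaining 4 regions (2 at SREBF1, 1 at FDFT1 and that of SQLE) in none. These 4 are 36.4% of the 11, near the 34.9% of all WT regions without a mutant peak. Summits within 1 kb of an end of their own gene made up 4 of 5 and 2 of 2 peaks with knockdown, 1 of 2 and 4 of 8 in V2084D, and 7 of 25 and 5 of 18 in WT. Over the windows of all protein-coding genes, counting each peak once per gene, this share was 49.4% and 49.7% with knockdown, 51.9% and 44.8% in V2084D, and 41.4% and 41.8% in WT. It was thus higher in every mutant list than in the WT lists for genes in general, and the small counts at the 7 genes were not tested against it. The other WT summits lay inside the genes or in their flanks.

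SREBF2, the gene of SREBP-2 (chromosome 22 from 41833105 to 41907305, hg38), carried the region that every library listed. It spans 41832329 to 41833826, over the gene start and the 250 bases shown above. The fold enrichments were 8.45 and 7.88 in the lists with STUB1 knockdown, 3.52 and 3.83 in V2084D, and 6.96 and 10.5 in WT. The ranks were 456 of 8904 and 254 of 6663 with knockdown, 5342 of 6000 and 6955 of 12384 in V2084D, and 2543 of 27587 and 562 of 26515 in WT. Within their own lists these peaks thus stood in the top 5.12% and 3.81% with knockdown, at 89.0% and 56.2% from the top in V2084D, and in the top 9.22% and 2.12% in WT. In both V2084D lists the peak stood in the weaker part, and in the other 4 lists among the stronger peaks, and this difference between lists was not tested. Where listed, start peaks of INSIG1, HMGCS1 and SCAP stood nearer the top in V2084D replicate 2 than with knockdown. V2084D replicate 1 listed none of these, and replicate 2 with knockdown listed only that of INSIG1. No direction between the groups is thus shown. With knockdown the listed start peaks stood at 68.5% and 87.6% (INSIG1), 22.8% (HMGCS1) and 56.5% (SCAP) from the top. In V2084D replicate 2 they stood at 37.1%, 9.19% and 34.2%, in the same order of genes. The SREBF2 summits lay 197 and 411 bp before its start with knockdown, 30 bp before and 6 bp after it in V2084D, and 64 and 287 bp before it in WT. All 6 start peaks of SREBF2 held the sterol regulatory element and the NF-Y box of its printed sequence.

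The other SREBF2 peaks were scattered and mostly weak. V2084D replicate 2 had one 1814 bp inside the gene with a fold of 4.01. WT replicate 1 had one with a summit 24282 bp inside the gene, at a fold of 2.65, and one from 41900461 to 41900924 with a fold of 4.44, whose summit lay 105 bp from MIR33A, a microRNA gene within SREBF2 whose product represses sterol export genes. The second reproducible WT region, 41914256 to 41915414, lies past the far end of SREBF2 and at the gene SHISA8, whose nearer end was 271 bp (WT replicate 1) and 15 bp (WT replicate 2) from the summit of the strongest peak. V2084D replicate 2 also had a peak there, with a fold of 2.88 and rank 12297 of 12384, against 3.31 and 6.93 in the WT lists. Neither library with knockdown did.

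INSIG1 (chromosome 7 from 155297878 to 155310235) had its reproducible WT region from 155296902 to 155298328, over the start. The fold was 4.60 and 3.49 with STUB1 knockdown (ranks 6103 of 8904 and 5835 of 6663), 4.74 in V2084D replicate 2 (rank 4600 of 12384), and 8.95 and 6.91 in WT (ranks 1223 of 27587 and 3294 of 26515). V2084D replicate 1 listed no peak at INSIG1. The mutant peaks were shorter than the WT peaks, 315 and 427 bp with knockdown and 314 bp in V2084D, against 1356 and 1342 bp in WT. The median peak of the whole list was 447 and 410 bp with knockdown, 392 and 415 bp in V2084D, and 517 and 500 bp in WT, so the WT peaks at INSIG1 were longer than most of their own lists. The 427 bp peak of knockdown replicate 2 lay just above the median of its list, and the other mutant peaks lay below theirs. All 3 mutant peaks lay within the extent of the WT region. Summits lay 200 and 484 bp before the start with knockdown, 262 bp in V2084D, and 329 and 308 bp in WT. The E-box was held by the peak of replicate 1 with knockdown and by both WT peaks, and the NF-Y box by these and the V2084D peak. WT replicate 2 had a further peak 1291 bp before the start with a fold of 3.40.

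SCAP (chromosome 3 from 47413681 to 47477127) has its tabulated start at 47475941, inside the high-coordinate end of the gene. A peak at this start had folds of 3.59 with STUB1 knockdown (replicate 1, rank 5033 of 8904), 4.20 in V2084D (replicate 2, rank 4233 of 12384), and 4.58 and 3.01 in WT (ranks 7872 of 27587 and 22696 of 26515). Replicate 2 with knockdown and V2084D replicate 1 listed none anywhere in the window. The summits lay 106 bp inside the start with knockdown, 240 bp before it in V2084D, and 100 and 107 bp inside it in WT. The knockdown and WT summits thus fell within a few bases of one another. The summit of the V2084D peak lay on the other side of the start. The lncRNA gene LOC105377073 begins beside this start, and its end was nearer to the 4 summits than either end of SCAP. WT replicate 1 had a second peak 1987 bp inside the start (fold 5.32), and WT replicate 2 one beyond the other end of SCAP, inside PTPN23 (fold 4.37).

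HMGCS1 (chromosome 5 from 43287470 to 43313412) had 1 peak in each of 4 libraries, all at its start. The fold was 5.37 in replicate 1 with STUB1 knockdown (rank 2027 of 8904), 6.32 in V2084D replicate 2 (rank 1138 of 12384), and 5.12 and 6.41 in WT (ranks 12399 of 27587 and 3365 of 26515). Among the 7 genes, HMGCS1 had the highest-ranking peak of V2084D replicate 2. Summits lay 67 bp before the first start with knockdown, 100 bp inside it in V2084D, and 165 bp inside and 80 bp before it in WT. The 4 summits spanned 245 bp. Both NF-Y boxes lay in the peaks of replicate 1 with knockdown, of V2084D replicate 2 and of WT replicate 2, and outside that of WT replicate 1. No other peak was listed within 10 kb of HMGCS1 in any library.

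**Figure D3:**
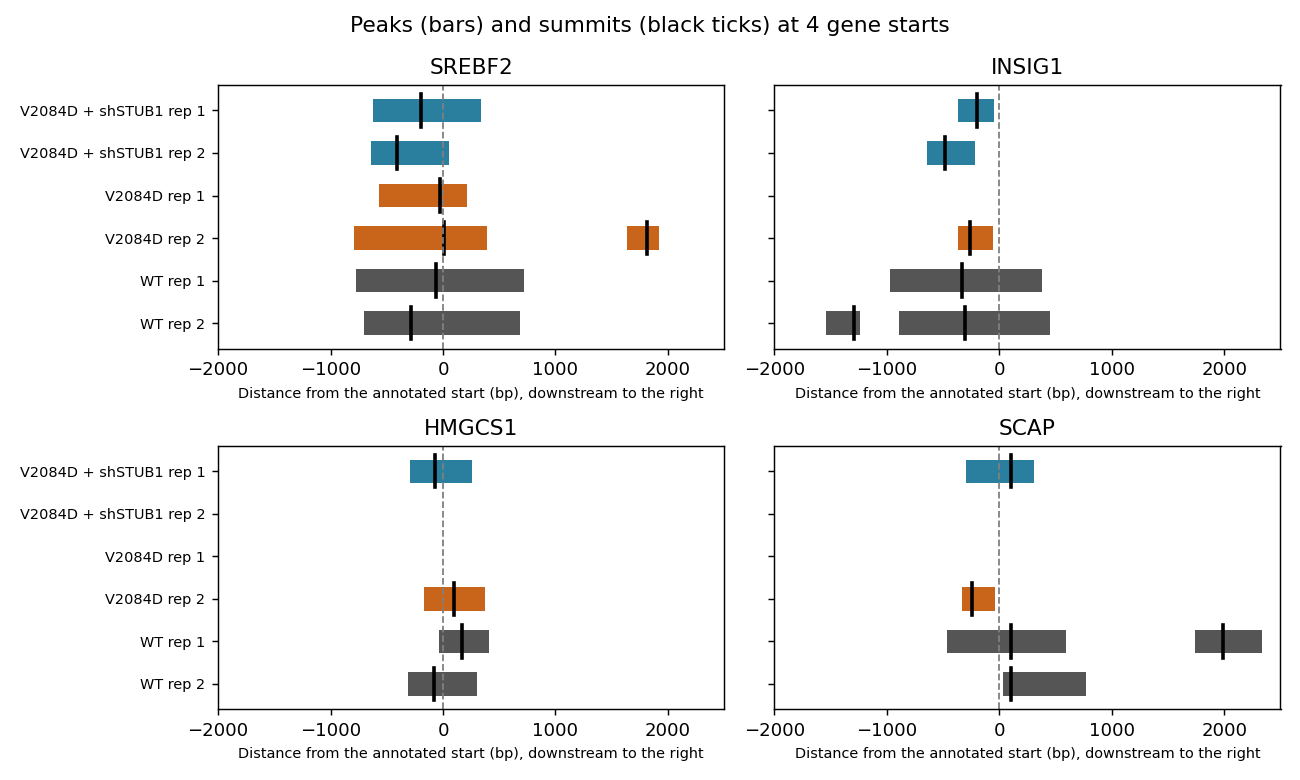
Peaks (bars) and their summits (black ticks) at the starts of SREBF2, INSIG1, HMGCS1 and SCAP in each library, by distance from the annotated start in bp (dashed line, downstream to the right). SREBF2 has a peak over its start in all 6 libraries, V2084D replicate 1 has none at the other genes, and the mutant peaks at INSIG1 are shorter (314 to 427 bp) than the WT peaks (1356 and 1342 bp).

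SREBF1, the gene of SREBP-1 (chromosome 17 from 17811334 to 17836986, minus strand), had 1 and 0 peaks with STUB1 knockdown, 0 and 1 in V2084D, and 7 and 7 in WT. Among the 7 windows, flanks included, that of SREBF1 had the widest gap between WT and mutant peak numbers. Over all 6 lists, 8 of its 16 summits lay outside the gene. The strongest reproducible WT region, 17823410 to 17824351, lies inside the gene, with summits 12920 and 13016 bp from the tabulated start, folds of 7.06 and 5.96 and ranks 3742 of 27587 and 4039 of 26515. No mutant library had a peak there. A second region, 17809709 to 17810471, lies beyond the 3′ end of SREBF1, inside the neighbouring gene RAI1. It had a fold of 4.37 in V2084D replicate 2 (rank 3818 of 12384) and of 6.31 and 4.59 in WT, and no peak with knockdown. The third, 17808657 to 17809583, also lies inside RAI1, with 4.31 and 3.45 in WT and no mutant peak.

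At the tabulated start of SREBF1 itself the lists did not agree. Replicate 1 with STUB1 knockdown had a peak 355 bp inside the start with a fold of 3.06 (rank 8405 of 8904), and WT replicate 1 had peaks 395 bp inside it (fold 4.19) and 283 bp before it (fold 4.36). WT replicate 2 and both V2084D libraries had none within 1 kb of the start. No region at this start was therefore reproducible in WT. MIR33B, a microRNA gene within SREBF1 and a relative of MIR33A, had the nearest annotated end to a further peak of WT replicate 2, at 4576 bp (fold 4.33).

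FDFT1, squalene synthase (chromosome 8 from 11795582 to 11839298), had 0 and 0 peaks with STUB1 knockdown, 1 and 1 in V2084D, and 7 and 3 in WT. It was the only 1 of the 7 genes with a peak in both V2084D libraries and none with knockdown. The region that V2084D and WT shared, 11802421 to 11803636, lies inside the gene, 7374 to 7751 bp from its low-coordinate end. An end of the gene LOC105379243 was nearer to these summits, at 1601 to 1978 bp. Its folds were 3.72 and 4.94 in V2084D (ranks 5636 of 6000 and 4122 of 12384), and 9.20 and 4.55 in WT (ranks 1470 of 27587 and 14855 of 26515). The second WT region, 11807756 to 11809208, had folds of 3.64 and 6.50 and no mutant peak. At the low-coordinate end, WT replicate 2 had a peak with a summit 127 bp inside the gene (fold 3.83) and WT replicate 1 one at 1394 bp (fold 5.12), which did not overlap. The other WT peaks, in replicate 1 alone, had folds of 3.84, 4.70, 5.32 and 4.04, and the last lay inside the neighbouring gene CTSB, a lysosomal protease gene. The strand of FDFT1 and SQLE was not used here.

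SQLE, squalene epoxidase (chromosome 8 from 124998505 to 125022283), had no peak with STUB1 knockdown, none in V2084D, and 2 and 1 in WT. The reproducible WT region, 124997868 to 124998895, covers the low-coordinate end of the gene and reaches SQLE-DT, a lncRNA gene beside it. Its folds were 4.35 and 7.09, and its ranks 9249 of 27587 and 2111 of 26515. The summits lay 359 bp outside the gene in WT replicate 1, where the end of SQLE-DT was 52 bp away, and 212 bp inside SQLE in WT replicate 2. The other peak of WT replicate 1 lay 2655 bp outside the gene with a fold of 3.83. A list without a peak shows that none passed the authors' caller and not that the tagged protein was absent.

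**Figure D4:**
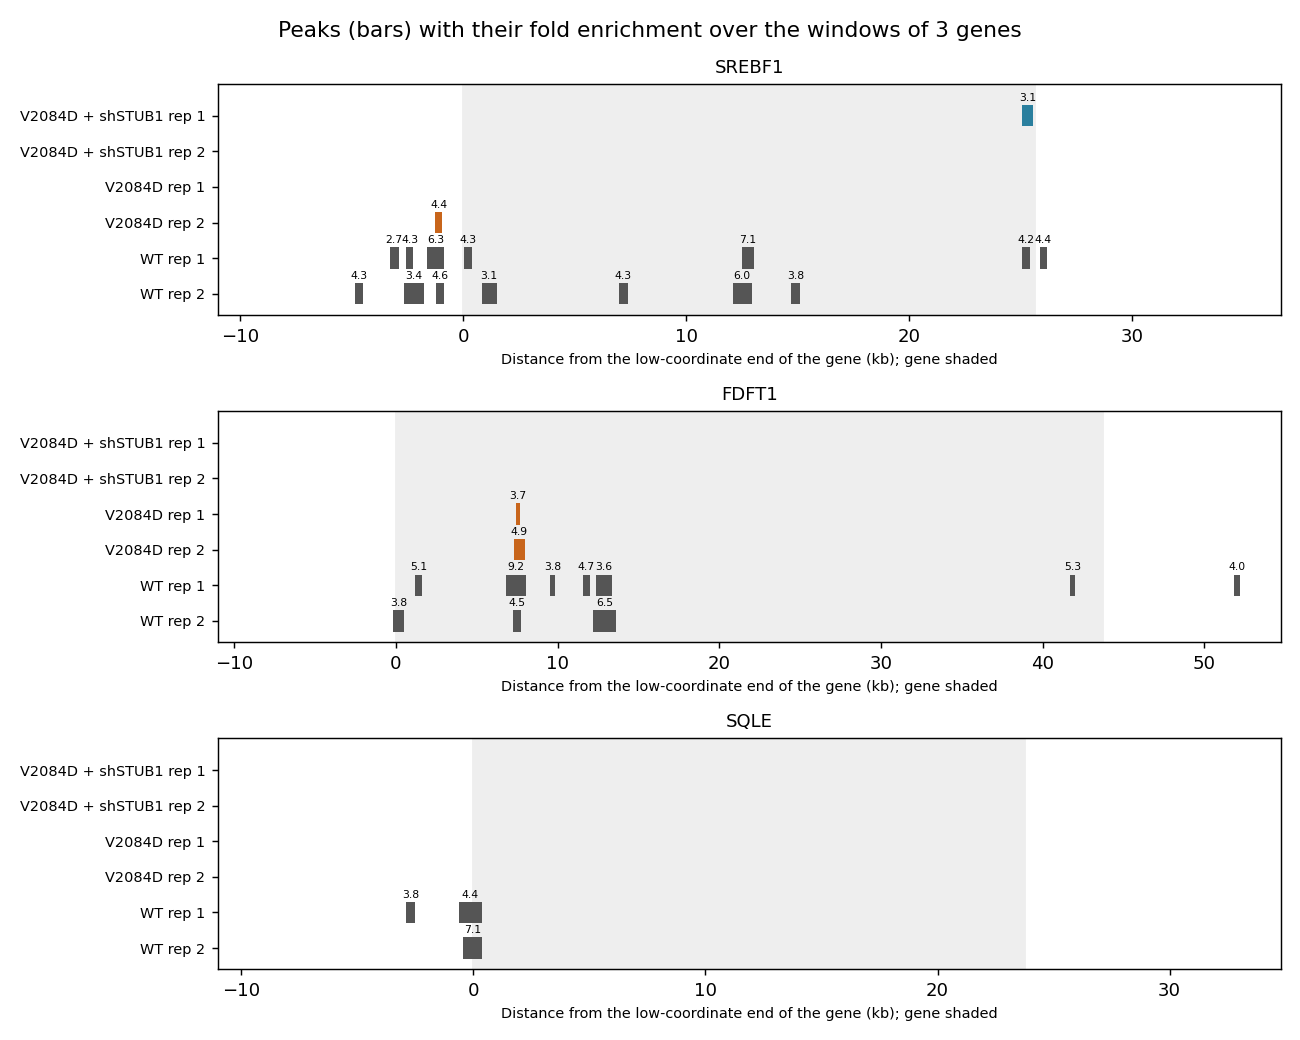
Peaks (bars, with fold enrichment above) over the windows of SREBF1, FDFT1 and SQLE in each library, by distance from the low-coordinate end of the gene in kb (gene shaded). The start of SREBF1 is at its right end; its 2 mutant peaks lie at opposite ends of the gene, V2084D peaks at FDFT1 lie in 1 region, and SQLE has WT peaks only.

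The wider pathway was described by 48 other genes in 4 lists. A peak in both libraries was found at 14 of 48 with STUB1 knockdown, 17 of 48 in V2084D and 44 of 48 in WT, against 25.4%, 24.2% and 66.7% of all protein-coding genes. The shares were 29.2%, 35.4% and 91.7%. With every list cut to 6000 peaks the counts were 12, 13 and 19 of 48, so the WT count moved with list length. The share over all genes was not computed for lists cut in this way. A single library gave 26 of 48 with knockdown (without replicate 2), which is 54.2% against 40.0% of all genes. In V2084D it gave 32 of 48 (without replicate 1), which is 66.7% against 46.0%. These differences were not tested. Gene length, which sets the window, had a median of 25943 bp for the 7 genes, 25447 bp for the 48 and 24115 bp for all. Of 18 other enzymes of sterol synthesis, 7 with knockdown, 7 in V2084D and 17 in WT had a peak in both libraries. The counts were 2, 4 and 11 of 11 for other genes of SREBP control, 2, 2 and 6 of 8 for sterol uptake and transport, and 3, 4 and 10 of 11 for fatty acid synthesis, in the same order of groups. Windows can hold neighbouring genes, so a peak is not always at the named gene.

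A peak in both libraries of all 3 groups was found at 9 of the 48 genes (18.8%), near the 16.4% of all protein-coding genes. Among them were ACAT2, which makes acetoacetyl-CoA, PMVK and FDPS of the mevalonate branch, TM7SF2 and LBR, both sterol reductases, and NR1H2, a receptor for oxysterols. The strongest peak near LBR had folds of 6.29 and 4.73 with STUB1 knockdown, 5.52 and 4.40 in V2084D, and 9.68 and 7.66 in WT. FASN, fatty acid synthase, was in this class too and is named here after its values were seen. Its strongest peak ranked 2565 and 220 with knockdown, 103 and 245 in V2084D, and 50 and 20 in WT, where the folds were 17.9 and 21.1. It ranked higher in both V2084D lists and in both WT lists than any peak of the 7 genes.

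Of the 44 other pathway genes with a peak in both WT libraries, 12 (27.3%) had none in V2084D, near the 28.7% of all such genes. Among the 12 were CYP51A1 and NSDHL, both needed for the demethylation of sterol precursors, and INSIG2, the second INSIG protein. INSIG2 had no mutant peak, and its WT peaks had folds of 2.98 and 2.58 and ranks 25989 of 27587 and 25731 of 26515, near the end of both lists. The strongest WT peaks of INSIG1 ranked 1223 and 3294 in the same lists, and its further peak in WT replicate 2 ranked 24225. NPC1L1, the intestinal sterol importer, was the 1 gene of the 48 without a peak in any library.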

How the data were processed

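Flag ChIP-seq peak lists of 6 libraries were used; the 2 WT input libraries were not analysed here. The submitters' processing notes name hg38 as the build, and as tools MACS2, Bowtie2, Trimmomatic, Picard, SAMtools, deepTools and bedtools, without roles. Tool versions, settings and the control used are not given in the sources. Peak names show 1 call per library. The deposited values per peak are a fold enrichment (a ratio), −log10 p and −log10 q, and the deposited score is 10 times −log10 q rounded down. No depth is given.

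Genes, starts and promoters came from RefSeq tables (GRCh38.p14, the assembly of hg38). Of the 7 genes, 5 matched the promoter table. A peak counted for a gene when it overlapped the window by at least 1 bp. WT peaks overlapping by at least 1 bp between replicates were joined. Peak numbers were compared by exact permutation with Benjamini-Hochberg adjustment (Python 3.11.15, pandas 2.3.3, statsmodels 0.14.6); counts over genes are descriptions. Code was tested on simulated data. Replicates of a group shared no identical peak. The text names all 7 genes, and of the pathway lists up to 6 genes per pattern in list order, the patterns being a peak in both libraries of every group, WT peaks without a V2084D peak, and no peak at all. Some genes that this rule names are not reported here. The genes and lists were chosen with earlier results of these data known. Alternatives were other windows, summits, thresholds, list lengths and overlaps, each library left out, and the replicate numbers as a block.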

Additional observations from a re-analysis of the deposited data

How the results depend on the processing

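Peak numbers in the 7 windows were below WT in both mutant groups in all 13 alternatives run for each. The replicate block is among the 13 and keeps the main difference by construction. The gap shrank to -2.5 and -4 with lists of equal length, to -7 and -6 with −log10 q of at least 5, to -7.5 and -6.5 with a fold of at least 5, and to -5 and -4.5 within 1 kb of gene ends (V2084D and knockdown, each minus WT). Differences ran from -20 to -13 for V2084D and from -21.5 to -14.5 with STUB1 knockdown when a library was left out. Knockdown minus V2084D was 0.5 within 1 kb of gene ends, 1 with −log10 q of at least 5 and 1 with a fold of at least 5, turning its sign, and ran from -4.5 to 1.5 with a library left out, with 1.5 without V2084D replicate 2 and 0 without replicate 2 of the knockdown. The replicate numbers are not said to pair libraries. As a block they left the differences at -16.5, -1.5 and -18 (sign-flip p of at least 0.5 by construction), and the correlations of same-numbered deviations over genes were -0.0062, -0.11 and 0.046 for V2084D with WT, knockdown with V2084D and knockdown with WT.

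Within 1 kb of gene ends, 1 of the 7 genes was occupied in V2084D (SREBF2), and 7 and 10 of the 48 with knockdown and in V2084D. WT regions were then 6, of which 2 lacked a knockdown peak and 1 a V2084D peak. With −log10 q of at least 5, 1 of the 7 genes with knockdown (SREBF2) and 0 in V2084D were occupied, and 5, 1 and 29 of the 48 with knockdown, in V2084D and in WT. WT regions were 5, of which 4 lacked a knockdown peak and 5 a V2084D peak. With a fold of at least 5 these values were 1 and 0 genes, then 5, 2 and 26 of the 48, and 4 regions, of which 2 lacked a knockdown peak and 3 a V2084D peak. With an overlap of 50% of both peaks, 5 of 8 regions lacked a knockdown peak and 6 a V2084D peak, so the order of the mutant groups turned in these 3 alternatives. The order also turned without V2084D replicate 2, where 9 regions lacked a V2084D peak and 7 a knockdown peak. With lists of equal length (6000 peaks), 1 gene with knockdown (SREBF2), 1 in V2084D (FDFT1), and 4 in WT were occupied, and 12, 13 and 19 of the 48 with knockdown, in V2084D and in WT. WT regions were 3, of which 2 lacked a knockdown peak and 1 a V2084D peak. With summits within 200 bp there were 4 regions, 2 without a peak in each mutant group. Windows of 25 kb gave 11 regions without a knockdown peak and 7 without a V2084D peak. With a library left out, genes occupied ran from 2 to 5 with knockdown and from 2 to 6 in V2084D, being 5 without knockdown replicate 2 and 6 without V2084D replicate 1, and from 16 to 26 and 19 to 32 of the 48. WT regions ran from 18 to 25, those without a knockdown peak from 7 to 20, and those without a V2084D peak from 4 to 18, since 1 library then stood for its group. With a mutant library left out, the count is that of the library kept, whose share over all genes is known. It was 40.0% and 31.4% for knockdown replicates 1 and 2, and 28.8% and 46.0% for those of V2084D. Peaks of these libraries lay at 41.5%, 31.5%, 27.7% and 46.8% of all WT regions, in the same order. Shares were not computed for the other counts here, those from 1 WT library among them, which thus have no background beside them. The unknown depth of the shorter mutant lists limits any reading of absent peaks.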
